A study of Mus musculus with 6 samples.

Results

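The mTOR kinase and the genes around it, which couple growth of a cell to nutrients, insulin and energy, were read in mouse blastocysts that had been cultured in vitro or had developed in vivo. The set holds 10 genes, Mtor, Rptor, Rictor, Tsc1, Tsc2, Rheb, Eif4ebp1, Rps6kb1, Akt1 and Ddit4, taken by name from the 49993 genes of the deposited count table. The rule uses no measured value, and each of the 10 passed the filter on low counts. None differed between the groups at an adjusted p below 0.05 in edgeR, in a fit in which 0 of 14301 genes (0%) passed. At an unadjusted p below 0.05 there were 3, against 10.2% of all genes, while DESeq2 passed 1 of the 10, against 2.82% of all genes, and limma-voom 0, against 0.713%. Rictor was higher in every in vitro library than in any in vivo library, as were 9.27% of all genes. Tsc2 and Eif4ebp1 were lower in every in vitro library, as were 10% of all genes, and the other 7 members overlapped between the groups.

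The study holds 3 libraries of blastocysts grown in vitro and 3 of blastocysts grown in vivo. The labels name no gene alteration in either group, and both groups come from females given 10 IU PMSG and, 48 h later, 10 IU hCG, hormones that induce ovulation of many oocytes at once. For the in vitro group, zygotes were collected 19 to 21 h after hCG and cultured in KSOM, a simple embryo medium, at 37 °C under 5% CO2. For the in vivo group, uterine flushing on day 3.5 yielded the blastocysts. No collection day is listed for the in vitro blastocysts, so a difference in age cannot be told apart from one of culture. The labels call each library a single inner cell mass and give the cell type as an embryonic stem cell, whereas the design text speaks of blastocysts. Whether replicates derive from different mothers is not stated, so p-values measure only the spread between these libraries, which may be technical.

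mTOR is a protein kinase that works in a pair of complexes. With Raptor, encoded by Rptor, it forms mTORC1, which sits on lysosomes, senses amino acids through Rag GTPases and is switched on by the small GTPase Rheb. With Rictor it forms mTORC2, which phosphorylates AKT kinases. In mouse embryos, loss of Mtor or Rptor arrests growth around implantation, and partial inhibition of mTOR can hold blastocysts in a paused state known from embryonic diapause.

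Library totals were 6918288, 12735551 and 9212405 counts in vitro and 9174789, 10240704 and 17643429 counts in vivo, in the order of replicates 1 to 3 that is kept throughout. A count of 3, taken as the limit that an observed 0 allows, stood for 0.236 to 0.434 CPM of these totals in vitro and 0.170 to 0.327 CPM in vivo, and covers counting error only. All other CPM values are counts scaled to library totals after TMM scaling, which evens out differences in composition between libraries. In vivo replicate 3 stood apart from the other in vivo libraries, with Spearman correlations across genes of 0.786 and 0.793 to them, while these correlated at 0.942 with each other. In vitro replicate 2 correlated with in vivo replicates 1 and 2 at 0.873 and 0.857, and it alone held no Y-linked signal (1 count over 4 genes, against 1139 or more in the other 5 libraries). Xist, an RNA of the inactive X chromosome, had 7494 counts there and 8 to 341 in the other 5 libraries. This is the pattern of female cells, and no in vivo library showed it. The share of counts in 18S ribosomal RNA was 35.8 to 40.4% in vitro and 16.7 to 41.7% in vivo. Mitochondrial genes took 6.76 to 9.41% in vitro and 10.9 to 15.3% in vivo, with no overlap. The summed level of 10 primitive endoderm markers was 673 to 1125 CPM in vitro and 316 to 679 CPM in vivo. That of 10 epiblast markers was 525 to 1071 CPM in vitro and 663 to 802 CPM in vivo. That of 10 trophectoderm markers, genes of the outer layer, was 1060 to 1846 CPM in vitro and 682 to 1422 CPM in vivo, although the labels name an inner cell mass alone. The sum does not show which of the 10 genes gave the signal, so whether outer cells were present is uncertain. Of 8 cumulus cell markers 5 were at 0 in every library and the sum was at most 1.69 CPM. Of 8 uterine markers 4 were at 0, with sums of 0.391 to 5.12 CPM in vitro and 6.07 to 15.4 CPM in vivo. Of 6 blood and immune markers 4 were at 0, with sums of at most 1.32 CPM in vitro and 3.20 CPM in vivo. The part that these differences had in the results on single genes was not tested. The libraries are bulk samples, so fewer cells of a type and less RNA per cell cannot be told apart.

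The 250 bases before a RefSeq transcription start are shown for Rictor and Tsc2, the members that stood farthest apart between the groups in opposite directions. They are RefSeq sequences on GRCm38.p6, written 5′ to 3′ on the gene's own strand, at chr15:6708131-6708380 (plus strand) for Rictor and chr17:24632628-24632877 (minus strand) for Tsc2. The RefSeq start used for each lies inside the gene interval of the deposited table, so each stretch overlaps the outermost bases of that interval. The capitals mark the GC box GGGCGG, read on either strand.
Rictor: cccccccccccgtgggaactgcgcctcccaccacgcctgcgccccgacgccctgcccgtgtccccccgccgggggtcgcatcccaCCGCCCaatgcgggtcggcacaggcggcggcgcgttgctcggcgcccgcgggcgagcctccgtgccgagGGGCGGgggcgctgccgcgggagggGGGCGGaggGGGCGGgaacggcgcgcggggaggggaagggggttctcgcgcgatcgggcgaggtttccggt
Tsc2: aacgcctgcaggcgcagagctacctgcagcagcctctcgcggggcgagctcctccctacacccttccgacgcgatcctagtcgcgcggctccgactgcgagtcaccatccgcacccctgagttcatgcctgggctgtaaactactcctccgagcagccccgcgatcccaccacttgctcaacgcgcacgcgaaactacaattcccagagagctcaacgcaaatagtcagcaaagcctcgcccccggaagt

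The Rictor stretch held 4 GC boxes and the Tsc2 stretch none. RefSeq promoters were matched for 9 of the 10 members, all but Eif4ebp1, and 5 of the 9 had a GC box, against 32.7% of 32851 promoters of the same length, with more than 1 for some genes. A member was counted if any of its promoters held the box, whereas the background counts single promoters. Akt1 counted by its promoter 2 alone. The E-box CACGTG, found before Rheb alone, stood in 6.02% of all promoters. The forkhead motif GTAAACA, found before Akt1 alone, stood in 3.17%, and the cAMP response element TGACGTCA, found before none of the 9, in 1.55%. These motifs do not overlap one another in sequence, were read on both strands, and are descriptions of letters only.

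Rictor, the scaffold that defines mTORC2, was the member of smallest p. It lies on chromosome 15 at 6708349 to 6800401 (GRCm38, plus strand). Rictor had 31.1, 36.5 and 45.2 CPM in the in vitro libraries, against 12.5, 16.4 and 10.2 CPM in the in vivo libraries. The lowest in vitro library was above the highest in vivo library. The means were 37.6 ± 7.08 CPM in vitro and 13.1 ± 3.14 CPM in vivo (SD, n = 3 each), a log2 fold change of 1.53 ± 0.43 (SE), or 2.88-fold, with a 95% confidence interval of 0.57 to 2.48. The unadjusted p of edgeR's quasi-likelihood test was 0.00560 and the Benjamini-Hochberg adjusted p over 14301 genes was 0.350. DESeq2 gave Rictor an adjusted p of 0.0255, in a fit in which 459 of 16293 genes (2.82%) passed and 252 (1.55%) passed as higher in vitro. The DESeq2 value was 0.0473 without in vivo replicate 3 and 0.0656 to 0.148 without any other single library, and over all alternatives the adjusted p ran between 0.0255 and 0.869. limma-voom gave 0.0849, with 102 genes (0.713%) passing.

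Mtor itself, the kinase of both complexes, had 12.6, 10.7 and 9.89 CPM in vitro and 18.1, 11.3 and 3.94 CPM in vivo. The in vivo libraries held both the highest and the lowest value, so the in vitro range lay inside the in vivo range. The means were 11.1 ± 1.39 CPM in vitro and 11.1 ± 7.09 CPM in vivo (SD, n = 3 each), a log2 fold change of -0.01 ± 0.68 with an adjusted p of 0.998 (edgeR). The 95% confidence interval, -1.54 to 1.52, leaves room for a difference of over 2-fold either way. Without in vivo replicate 3, the lowest library, the log2 fold change was -0.41. Mtor lies on chromosome 4 at 148448582 to 148557685 (GRCm38, plus strand), and the deposited table also lists it on an alternate scaffold with nearly the same exon length (17189 bases over both copies, 8595 of them on the chromosome). No source used here says how reads that match both copies were counted, so the level of Mtor relative to other genes is uncertain.

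Rptor, the scaffold of mTORC1 (chromosome 11, 119602905 to 119899591, plus strand), had 20.5, 9.29 and 11.6 CPM in vitro and 12.9, 13.3 and 14.2 CPM in vivo. Here the in vitro libraries held both extremes and the in vivo libraries lay close together. The means were 13.8 ± 5.90 CPM in vitro and 13.5 ± 0.69 CPM in vivo, a log2 fold change of 0.03 ± 0.55 with an adjusted p of 0.994 (edgeR, n = 3 each) and a 95% confidence interval of -1.20 to 1.26. Its antisense neighbour Rptoros shares 84 exon bases with it, 1.01% of the Rptor exons, and Rptoros had 0 counts in each in vitro library and 1, 4 and 61 in vivo. The direction of Rptor flipped, to -0.32, under scaling by total counts, which moved the median of all genes to -0.31.

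**Figure D1:**
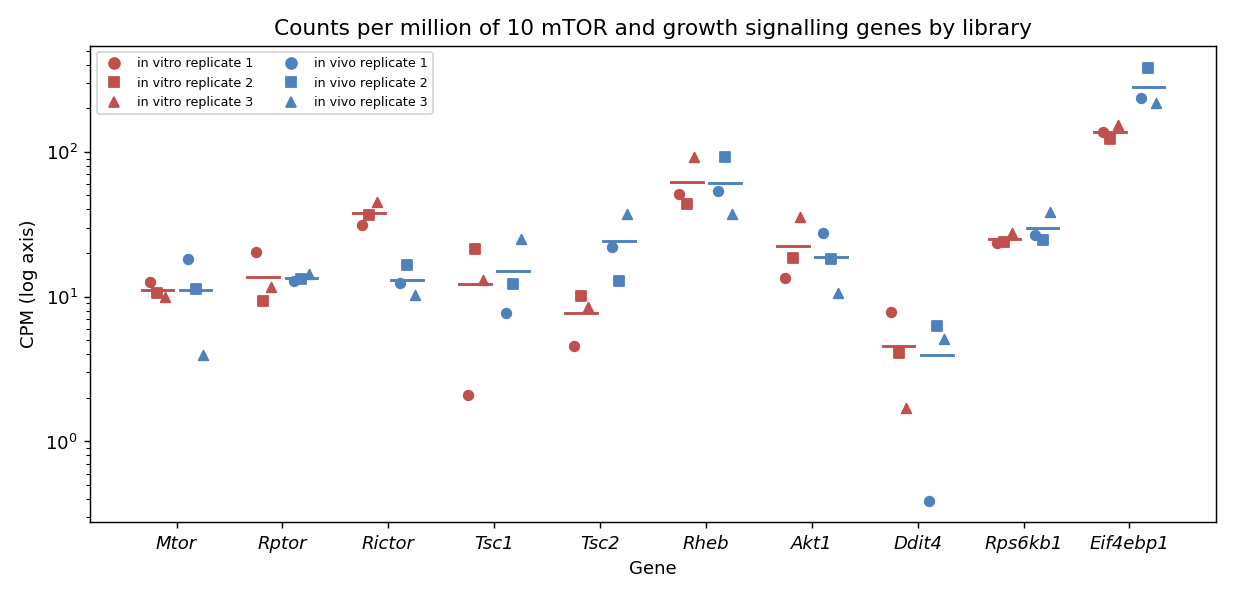
Levels of the 10 genes in each of the 6 libraries, in CPM on TMM-scaled totals (log axis), with the 3 in vitro libraries left of the 3 in vivo libraries for each gene and a marker shape for each replicate. The in vitro points of Rictor, at 31.1 to 45.2 CPM, lie above its in vivo points, those of Tsc2 and Eif4ebp1 lie below, and the points of the other 7 genes overlap.

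The TSC proteins form the brake of the pathway. TSC1 and TSC2 together act as a GTPase-activating complex that turns Rheb off, and mutations of either gene cause tuberous sclerosis in humans. Tsc2, which carries the catalytic domain (chromosome 17, 24595816 to 24632676, minus strand), had 4.55, 10.1 and 8.46 CPM in vitro, against 22.1, 12.9 and 37.3 CPM in vivo. The groups did not overlap, although in vitro replicate 2 and in vivo replicate 2 were near each other. The means were 7.70 ± 2.85 CPM in vitro and 24.1 ± 12.3 CPM in vivo (SD, n = 3 each). This is a log2 fold change of -1.64 ± 0.60 with a 95% confidence interval of -3.00 to -0.28, a level 3.11 times as high in vivo. The unadjusted p was 0.0233 and the adjusted p 0.425 (edgeR). DESeq2 gave an adjusted p of 0.125 and limma-voom 0.350, so Tsc2 passed in none of the 3 tools, and over all alternatives the adjusted p ran between 0.111 and 0.869. The Tsc2 exons share 699 bases, 10.8% of their length, with Pkd1 on the opposite strand, and the library kit did not mark strand. Pkd1 had 7, 11 and 11 counts in vitro and 23, 70 and 91 counts in vivo, beside 26, 138 and 65 counts of Tsc2 in vitro and 283, 161 and 521 in vivo. What part of the Tsc2 counts came from Pkd1 was not tested.

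Tsc1, the partner that stabilises TSC2 (chromosome 2, 28640993 to 28691172, plus strand), had 2.10, 21.4 and 13.02 CPM in vitro and 7.73, 12.3 and 25.1 CPM in vivo. Its values spread about as widely within the groups as over all libraries. In vitro replicate 1, the lowest, rested on 12 counts. The log2 fold change was -0.30 ± 0.82 with an adjusted p of 0.935 (edgeR), and became -1.002 when in vitro replicate 2 was left out and 0.30 when in vivo replicate 3 was.

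Rheb, the GTPase that the TSC complex inhibits and that activates mTORC1 (chromosome 5, 24802823 to 24842361, minus strand), had 51.6, 43.5 and 91.5 CPM in vitro and 53.5, 92.3 and 37.0 CPM in vivo. Each group held 1 library above 90 CPM and a pair at 37.0 to 53.5 CPM. The log2 fold change was 0.03 ± 0.45, with an adjusted p of 0.991 (edgeR, n = 3 each) and a 95% confidence interval of -0.99 to 1.04. Its direction flipped, to -0.39, under scaling by total counts.

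Of the outputs of mTORC1, Eif4ebp1 encodes a repressor of cap-dependent translation that lets go of the cap-binding protein eIF4E once mTORC1 has phosphorylated it. Eif4ebp1 (chromosome 8, 27260327 to 27275656, plus strand) had 137, 123 and 153 CPM in vitro, against 236, 382 and 219 CPM in vivo. All 3 in vitro libraries lay below the lowest in vivo library and close to one another. The means were 138 ± 15.3 CPM in vitro and 279 ± 89.8 CPM in vivo (SD, n = 3 each). This is a log2 fold change of -1.02 ± 0.32 with a 95% confidence interval from -1.75 to -0.29, a level 2.03 times as high in vivo. The unadjusted p was 0.0112 and the adjusted p 0.393 (edgeR). DESeq2 gave an adjusted p of 0.148 and limma-voom 0.0951, and over all alternatives the value ran between 0.0579 and 0.869. The counts behind the values were 783, 1678 and 1178 in vitro and 3018, 4788 and 3058 in vivo, the deepest of the set. Stretches of up to 104 bases of the transcript are up to 95.2% identical to Gm34730 and Olfr1120, which could share a few reads.

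Rps6kb1 encodes S6 kinase 1, the other classical mTORC1 substrate, which phosphorylates ribosomal protein S6 (chromosome 11, 86498869 to 86544885, minus strand). Rps6kb1 had 23.4, 23.8 and 27.3 CPM in vitro and 26.9, 24.7 and 38.4 CPM in vivo. The groups overlapped, and 5 of the 6 libraries lay between 23.4 and 27.3 CPM. edgeR gave a log2 fold change of -0.27 ± 0.40, with an adjusted p of 0.862 (n = 3 each) and a 95% confidence interval of -1.16 to 0.62. It shares 139 exon bases (1.34%) with Rnft1 on the opposite strand.

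Akt1, the kinase that relays insulin and growth factor signals to the TSC complex and that mTORC2 phosphorylates in turn (chromosome 12, 112653821 to 112674884, minus strand), had 13.5, 18.5 and 35.5 CPM in vitro and 27.6, 18.1 and 10.7 CPM in vivo. The ranges overlapped broadly, with the highest value in vitro and the lowest in vivo. edgeR gave a log2 fold change of 0.26 ± 0.56 with an adjusted p of 0.911, and its direction flipped, to -0.19, under scaling by total counts.

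Ddit4 encodes REDD1, a stress-induced protein that restrains mTORC1 through the TSC complex (chromosome 10, 59949675 to 59951770, minus strand). Ddit4 had 45, 56 and 13 counts in vitro and 5, 79 and 71 counts in vivo. These were the fewest of the set over all libraries together, though not in each library. In CPM they stood for 7.87, 4.10 and 1.69 in vitro and 0.390, 6.30 and 5.08 in vivo. Both groups held a library well under the others. The log2 fold change of 0.21 ± 1.16 had a 95% confidence interval of -2.42 to 2.84 and an adjusted p of 0.969 (edgeR, n = 3 each).

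**Figure D2:**
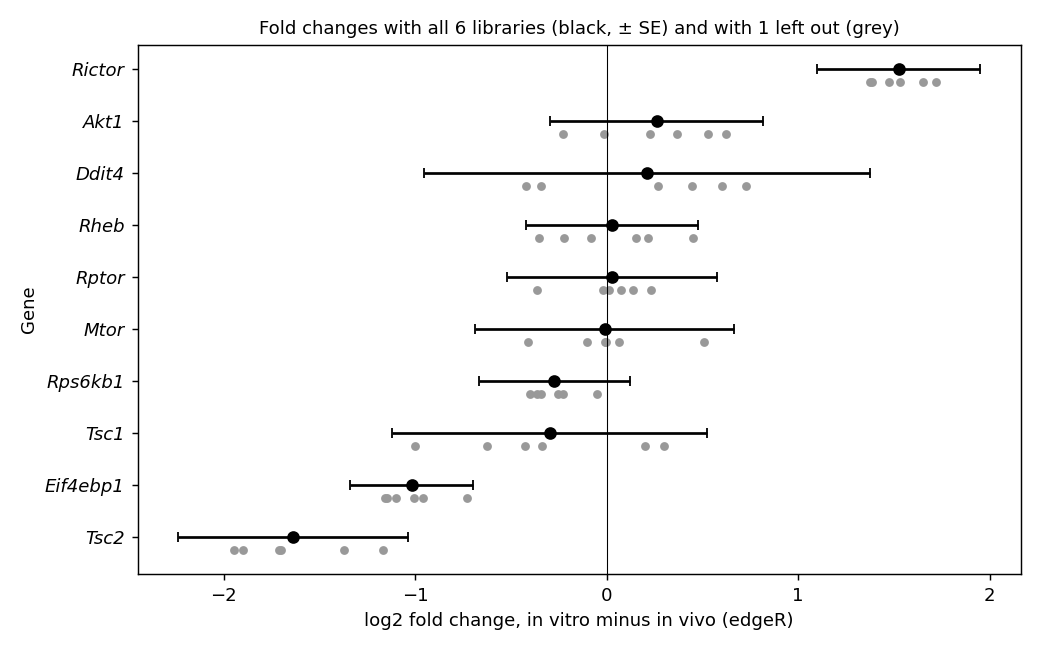
Log2 fold changes of the 10 genes, in vitro minus in vivo, from the edgeR fit, with all 6 libraries (black, bars for the SE) and with each library left out in turn (grey). Rictor (1.53) lies at the top, Eif4ebp1 (-1.02) and Tsc2 (-1.64) at the bottom, and their grey points stay on the same side of 0.

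Across the set, 1 gene of 10 was higher in vitro with no overlap between the groups and 2 were lower, against 9.27% of all 14301 genes as higher and 10% as lower, or 19.3% in either direction. The same counts, 1 higher and 2 lower, were found when in vivo replicate 3 or in vitro replicate 2 was left out, where 37.5% and 33.6% of all genes did not overlap. Without in vivo replicate 3 the log2 fold changes of Rictor, Tsc2 and Eif4ebp1 were 1.38, -1.17 and -1.16. Without in vitro replicate 2 they were 1.53, -1.90 and -0.96. Of the 10 members 5 had positive and 5 negative log2 fold changes, with a median log2 fold change of 0.01, against -0.01 over all genes. With 10 genes, 3 beside a background of 19.3% is not read as a result about the set.

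Log2 fold changes moved with gene length in these libraries, so each member can be read against genes of its own length. For each of the 6 members of longest exons, the 500 tested genes nearest in length had a median log2 fold change of 0.24 to 0.36. Mtor is an exception, as here and in the offset below it was taken at 17189 bases over both its copies, not at the 8595 on the chromosome. For the 3 shortest, Eif4ebp1, Rheb and Ddit4, it was -0.51 to -0.34. The 500 tested genes nearest to Rictor in exon length had a median log2 fold change of 0.31, against 1.53 for Rictor. For Tsc2 the value was 0.24, opposite in sign to the -1.64 of Tsc2. For Eif4ebp1, a short transcript of 981 bases, the 500 nearest genes had a median of -0.51, against -1.02 for the gene. With an offset on gene length in the model, an alternative chosen after seeing the data, the log2 fold changes were 1.22 for Rictor, -1.88 for Tsc2 and -0.51 for Eif4ebp1, and no gene passed. The log2 value of Eif4ebp1 thus moved by over 1.5 times with that setting, while those of Rictor and Tsc2 moved by less.

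Ratios of a pair of genes within a library do not depend on how libraries are scaled, and 6 ratios were compared. They can still carry the trend with gene length where the pair differs in length. The median of the 500 genes nearest in length was -0.51 for Eif4ebp1 and 0.36 for Rps6kb1. It was -0.34 for Rheb and 0.24 for Tsc2, but 0.31 for Rictor and 0.32 for Rptor. The part of length in the ratios was not tested. Rictor over Rptor, the scaffold of mTORC2 over that of mTORC1, had log2 count ratios of 0.60, 1.96 and 1.94 in vitro and -0.04, 0.30 and -0.47 in vivo. The groups did not overlap, and in vitro replicate 1 was the in vitro library nearest to the in vivo ones. The means were 1.498 ± 0.78 in vitro and -0.07 ± 0.39 in vivo, a difference of 1.57, and the two-sided exact permutation p was 0.1, the smallest that 3 against 3 libraries allow (0.30 adjusted over the 6 ratios). Leaving out single libraries gave differences of 1.34 to 2.02.

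Eif4ebp1 over Eif4ebp2, a paralog that also represses eIF4E, had log2 ratios of 0.34, 1.05 and 1.63 in vitro and 3.54, 4.80 and 1.72 in vivo. In linear terms there were 2.07 Eif4ebp1 counts per Eif4ebp2 count in in vitro replicate 2, against 28.2 in in vivo replicate 2. The groups did not overlap, but in vitro replicate 3 and in vivo replicate 3 nearly met. The difference in means was -2.35, with an exact permutation p of 0.1 (0.30 adjusted), and -3.17 to -1.63 on leaving out single libraries. Eif4ebp2 by itself had 108, 59.2 and 49.5 CPM in vitro and 20.1, 13.6 and 66.4 CPM in vivo, which overlap. Its exon length is 5822 bases, against 981 for Eif4ebp1.

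In the other 4 ratios the groups overlapped. Eif4ebp1 over Rps6kb1 averaged 2.46 ± 0.09 in vitro and 3.19 ± 0.72 in vivo on the log2 scale (exact permutation p = 0.2, 0.30 adjusted, n = 3 each). Rheb over Tsc2, the activator over its inhibitor, averaged 2.96 ± 0.76 in vitro and 1.36 ± 1.42 in vivo (exact permutation p = 0.2, 0.30 adjusted, n = 3 each). Tsc2 over Tsc1 differed by -0.94 and Akt1 over Akt2 by 0.19 on the log2 scale, with exact permutation p of 0.3 and 0.8. Akt2 has a pseudogene, Akt2-ps, that is 98.6% identical over 1449 bases and may share its reads.

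**Figure D3:**
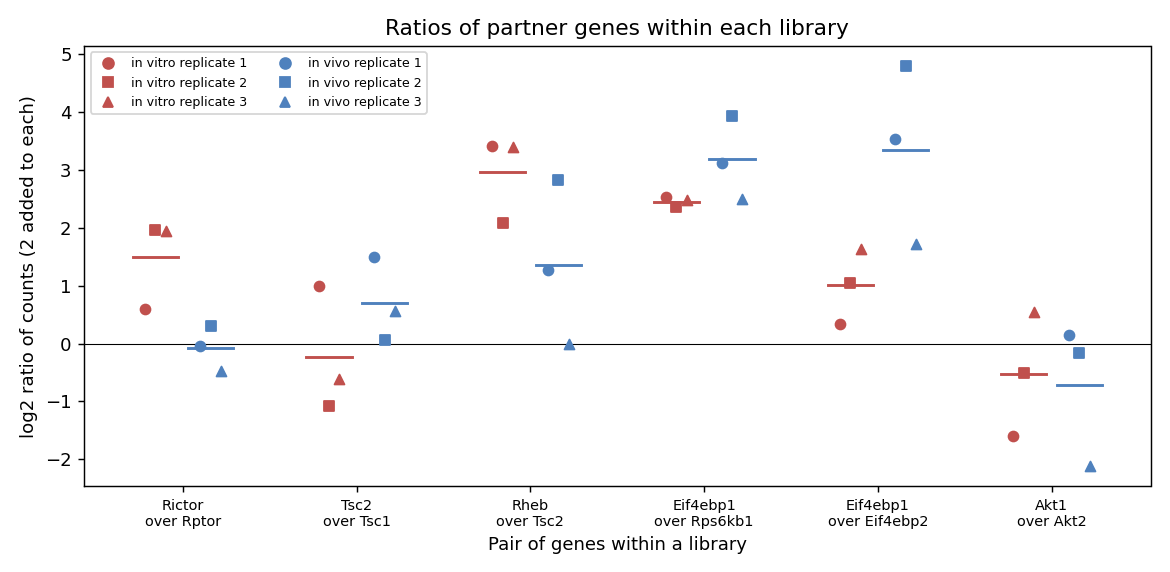
Log2 ratios of counts of gene pairs within each library (2 counts added to each gene), with the in vitro libraries left of the in vivo libraries and a bar for the mean of the 3 libraries. Rictor over Rptor is higher and Eif4ebp1 over Eif4ebp2 lower in every in vitro library than in any in vivo library, and the groups of the other 4 ratios overlap.

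Per kilobase of exon, Eif4ebp1 had the highest level in both groups, with means of 140 CPM per kb in vitro and 284 CPM per kb in vivo. Rheb came next at 40.9 CPM per kb in vitro and 40.1 CPM per kb in vivo, and Akt1 followed at 7.29 CPM per kb in vitro and 6.08 CPM per kb in vivo. These were the only neighbours in the order whose ranges did not overlap, in either group. The remaining genes lay between 1.18 and 3.99 CPM per kb in vitro and between 1.29 and 3.70 CPM per kb in vivo. In vitro Rictor stood in place 4 and Tsc2 in place 10. In vivo Tsc2 stood in place 4 and Rictor in place 9, next to Mtor, each overlapping its neighbours. The level of Mtor per kb was taken over its exons on the chromosome.

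The rest of the pathway was followed in 90 further genes, of which 83 passed the filter on low counts. The 7 not tested were Prr5l, Rragb, Castor2, Irs1, Irs2, Phlpp1 and Prkag3. None of the 83 passed at an adjusted p below 0.05 in edgeR, 5 had an unadjusted p below 0.05 as higher in vitro and 0 as lower, against 5.11% and 5.08% of all genes. Of the 83, 52 had a positive log2 fold change (62.7%, against 49.8% of all genes) and the median was 0.34, against -0.01 over all genes. The list median was 0.03 under scaling by total counts, 0.20 in limma-voom and 0.27 with the length offset. The medians of all genes there were -0.31, -0.09 and 0.04. Without overlap, 12 were higher and 5 lower, or 20.5%, close to the 19.3% of all genes. These shares of all genes are also the background for the counts of each list below. The median of each list below moved with the processing, by ranges given in the last section.

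Among the 8 tested subunits and assembly factors that accompany Mtor, Rptor and Rictor in their complexes, 3 had positive and 5 negative values with a median log2 fold change of -0.20. Deptor, an inhibitory subunit of both complexes, had 98.6, 50.4 and 73.3 CPM in vitro and 46.1, 48.3 and 42.5 CPM in vivo, without overlap (log2 fold change 0.70 ± 0.36, adjusted p = 0.540, edgeR). The shared subunit Mlst8 averaged 8.73 ± 2.56 CPM in vitro and 11.2 ± 2.49 CPM in vivo and overlapped. The other tested subunits of mTORC2 overlapped between the groups. Mapkap1, which encodes SIN1, averaged 19.7 ± 5.80 CPM in vitro and 15.1 ± 1.02 CPM in vivo, and Prr5, which encodes Protor-1, averaged 13.9 ± 8.12 CPM in vitro and 15.7 ± 13.5 CPM in vivo. Akt1s1, which encodes the mTORC1 inhibitor PRAS40, and Tti2, which helps mTOR to fold, had log2 fold changes of 0.70 ± 0.53 and -1.58 ± 1.09 and overlapped. Tti2 has 700 bases in common with its neighbour Mak16, so its counts are uncertain.

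The Rag GTPases bring mTORC1 to the lysosome when amino acids are plentiful, with the help of the Ragulator anchor and of folliculin. Of 12 tested genes of this module 8 had positive values, with a median of 0.59. Rragd, which encodes RagD, had 139, 63.1 and 189 CPM in vitro, against 53.8, 30.4 and 15.96 CPM in vivo. The lowest in vitro library was above the highest in vivo library, and the log2 fold change was 1.96 ± 0.55 with an adjusted p of 0.350 in edgeR and 0.0411 in DESeq2. Without the filter on low counts, edgeR gave 0.00282, in a fit in which 391 of 27882 genes (1.4%) passed. The DESeq2 value was 0.00793 without in vitro replicate 2, 0.00969 without in vivo replicate 1 and 0.0611 to 0.211 without any other single library, and over all alternatives the adjusted p ran between 0.00282 and 0.869. Fnip1, a partner of folliculin, had 31.7, 30.5 and 58.1 CPM in vitro and 17.5, 19.9 and 21.1 CPM in vivo, without overlap (1.04 ± 0.42, adjusted p = 0.455, edgeR). Rragc, which encodes the RagC paralog, overlapped (0.87 ± 0.45, adjusted p = 0.548, edgeR).

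Of 15 tested genes of GATOR, KICSTOR and the amino acid sensors, which hold the Rag GTPases in check or release them, 9 had positive values and the median was 0.40. No gene was higher without overlap and 2 were lower, Kptn and, named here because of its values, Wdr24. That is 13.3% without overlap, against 19.3% of all genes. Castor1, the arginine sensor, overlapped at -1.30 ± 0.68, and so did Seh1l of the GATOR2 complex at 0.45 ± 0.35. In the arm that runs through the insulin receptor, PI3-kinase and AKT, 9 of 14 tested genes were positive with a median of 0.36. Pik3ca, the catalytic p110α subunit, had 27.3, 21.8 and 19.7 CPM in vitro and 7.73, 11.5 and 15.2 CPM in vivo. Pdpk1, which encodes the kinase PDK1 upstream of AKT, had 31.1, 49.8 and 49.6 CPM in vitro and 28.3, 19.4 and 29.4 CPM in vivo. Neither overlapped between the groups, and their adjusted p values were 0.536 and 0.547 (edgeR). Pik3r3 overlapped at 1.97 ± 1.36, and is 99.9% identical to Gm49337 over 1296 bases, so its counts are uncertain. Irs2, an insulin receptor substrate that edgeR's filter left out, had 13.3, 0.220 and 1.30 CPM in vitro and 0, 0.0798 and 0 CPM in vivo. Its adjusted p in DESeq2 was 0.0105. Without in vitro replicate 1 DESeq2 gave none, without in vivo replicate 1 it was 0.0703, and without any other single library 0.00217 to 0.0345.

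AMPK, the energy sensor that restrains mTORC1, had 7 of 11 tested genes with positive values and a median of 0.41, counting its kinase LKB1 and cofactors. Prkab2, a regulatory β subunit, had 19.4, 10.3 and 26.0 CPM in vitro and 4.69, 3.27 and 0 CPM in vivo, without overlap (2.80 ± 1.25, adjusted p = 0.493, edgeR). The other β subunit, Prkab1, was lower without overlap, with 84.8, 81.9 and 82.1 CPM in vitro and 106.4, 87.2 and 95.1 CPM in vivo (-0.21 ± 0.29, adjusted p = 0.849, edgeR). Prkag2, without overlap, and Prkaa2, with overlap, stood at 2.09 ± 1.01 and 2.03 ± 1.42. Of the 3 relatives of TSC and RHEB, Rhebl1, Tbc1d7 and Ddit4l, none separated the groups, with log2 fold changes of -0.82 ± 1.28, 0.59 ± 1.49 and 0.21 ± 1.67, and the direction of Ddit4l flipped to -0.24 under scaling by total counts.

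The 20 outputs and substrates of the complexes included 14 positive values (70%, against 49.8% of all genes), with a median of 0.33. Without overlap, 4 genes were higher and 2 lower, or 30%, against 19.3% of all genes in either direction. With 20 genes this is not read as a result about the list. Pdcd4, a translation inhibitor that S6 kinase marks for degradation, had 201, 59.6 and 352 CPM in vitro and 37.6, 30.4 and 61.1 CPM in vivo. In vitro replicate 2 lay just under in vivo replicate 3, so the groups overlapped. The log2 fold change was 2.24 ± 0.60, with an adjusted p of 0.327 in edgeR and 0.0251 in DESeq2. The DESeq2 value was 1.04e-04 without in vitro replicate 2, 0.00510 without in vivo replicate 3 and above 0.05, at most 0.182, without any other single library, and over all alternatives the adjusted p ran between 1.04e-04 and 0.869. Tfeb, the lysosomal transcription factor that mTORC1 keeps in the cytoplasm, had 28.2, 45.8 and 46.3 CPM in vitro and 24.4, 10.9 and 9.52 CPM in vivo. Eif4b, a cofactor of the eIF4A helicase, had 245, 123 and 112 CPM in vitro and 89.0, 77.9 and 81.8 CPM in vivo. Both were higher without overlap, with adjusted p of 0.415 and 0.442 (edgeR). Grb10, an adaptor that damps insulin signalling once mTORC1 has phosphorylated it, had 0.525, 8.41 and 1.17 CPM in vitro and 12.8, 13.97 and 16.5 CPM in vivo, and is named here because of those values. Its log2 fold change was -2.07 ± 0.99, with an adjusted p of 0.523 in edgeR and 0.232 in DESeq2. Among the alternatives it passed only in DESeq2 without in vitro replicate 2 (adjusted p 1.36e-04). The value of in vitro replicate 1 rested on 3 counts. Rps6, the ribosomal protein that S6 kinase phosphorylates, averaged 151 ± 10.1 CPM in vitro and 160 ± 28.9 CPM in vivo.

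**Figure D4:**
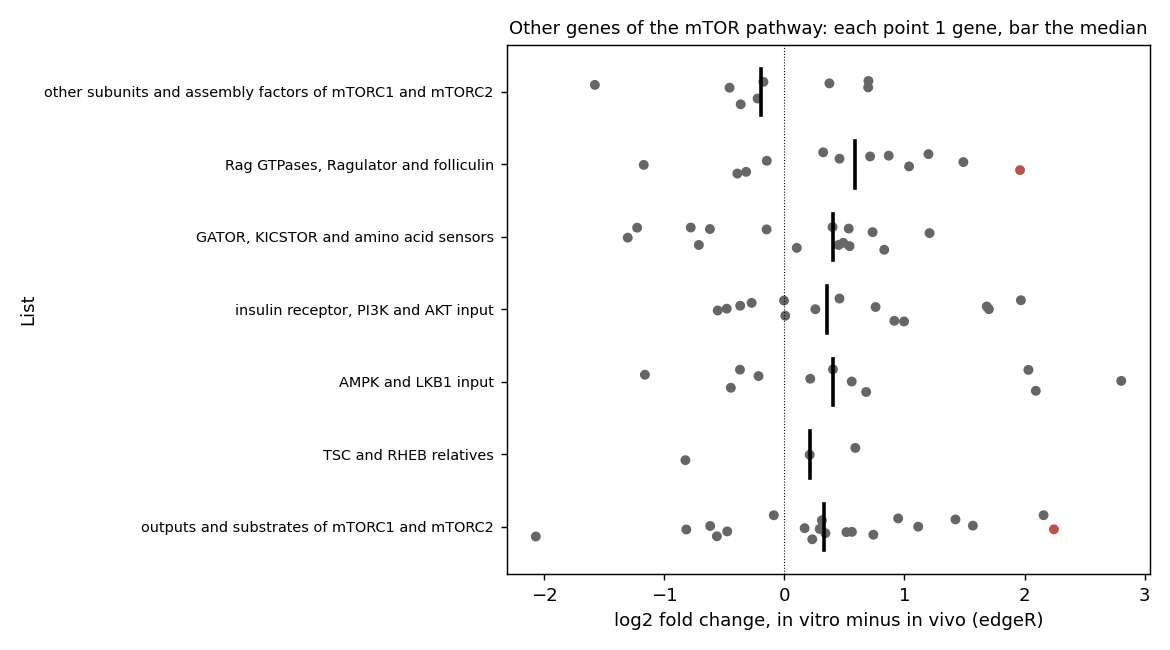
Log2 fold changes, in vitro minus in vivo, of the 83 tested pathway genes by list (1 point a gene), with a bar for each list's median and red for genes that passed in DESeq2. The Rag, Ragulator and folliculin genes have the highest median, 0.59, and the red points are Rragd and Pdcd4.

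The pattern of Rictor over the 6 libraries was most like that of Camsap2, Irf2bpl, Ski, Rassf8 and Lima1, with root mean square distances of 0.17 to 0.22 in centred log2 CPM, against a median distance of 0.96 over 6553 genes. Of the members compared, all but Ddit4, which was below the minimum of 10 CPM, Akt1 at 0.77 and Rheb at 0.79 were nearest to Rictor and Tsc2 was farthest at 1.69. The pattern of Mtor was most like that of Eri1, Ifitm2, Trap1a, Cdc42se2 and Hnrnph2, at 0.12 to 0.21 against a median of 0.90. These genes share with Mtor the low value in in vivo replicate 3. Trap1a, for example, had 129, 147 and 126 CPM in vitro and 184, 134 and 46.7 CPM in vivo. The distances rest on 6 libraries that share depth and scaling, and are a description.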

How the data were processed

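Total RNA was taken up with a microextraction kit and sequenced after tagmentation by a transposase, which leaves the strand unknown, per the labels. A single table of raw gene counts was deposited by the authors. The aligner, counter and annotation were not given in the sources used here. FastQC 0.11.2, DESeq2 and GRCm39 appear in the submitters' processing notes, but the coordinates of all 100 genes described equal RefSeq genes on GRCm38.p6, so that build is given. The deposited counts were tested in R 4.3.3 with edgeR 4.0.16, after edgeR's filter on low counts (14301 genes) and TMM scaling, by the legacy robust quasi-likelihood F-test, two-sided, with p-values adjusted by Benjamini-Hochberg over these genes (threshold 0.05). Standard errors came from the F statistic. CPM used TMM-scaled totals, ribosomal RNA included. DESeq2 1.42.0 and limma 3.58.1 (voom with quality weights) were run beside it. The steps were tested on simulated data. No pair of libraries of the same group agreed within sampling noise (chi-square per degree of freedom of at least 31.5).

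The members, gene lists and tests were chosen with earlier results of these data known. Named are all 10 members, up to 3 tested genes of smallest p per list, and, for Mtor and the member of smallest p, the 5 genes of at least 10 CPM with the nearest pattern. Mlst8, Mapkap1, Prr5, Prkab1, Rps6, Irs2, Wdr24 and Grb10 fall outside that rule and were chosen with their values known. Gene pairs within a library were compared by exact permutation. Alternatives covered scaling, filters, tools, single libraries left out and a replicate block. Without molecular identifiers, limits on counts of 0 cover counting error only.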

Additional observations from a re-analysis of the deposited data

How the results depend on the processing

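Rictor kept a positive and Tsc2, Eif4ebp1 and Rps6kb1 a negative log2 fold change under each alternative run, with ranges of 1.17 to 1.73, -1.95 to -1.08, -1.38 to -0.51 and -0.56 to -0.05. Over all genes, 391 passed without the filter on low counts, 459 in DESeq2, 102 in limma-voom and 3 in edgeR's newer form, against 0 by edgeR as reported, and 0 to 907 with libraries left out, the high counts all from DESeq2. Of the members, 1 passed in DESeq2 and 0 to 1 with libraries left out. Of the other pathway genes, 2 passed without the filter and 3 in DESeq2, and 0 to 4 with libraries left out. Over all alternatives, 3 list medians took both signs. They ran from -0.63 to 0.25 for subunits and assembly factors, -0.13 to 0.46 for GATOR, KICSTOR and sensors, and -0.97 to 0.80 for TSC and RHEB relatives. The others stayed positive, at 0.09 to 0.94 for the Rag list and 0.08 to 0.87 for the insulin arm. The AMPK list ran from 0.06 to 0.61 and the outputs from 0.10 to 0.57. Mtor, Rptor, Tsc1, Rheb, Akt1, Ddit4, Tbc1d7 and Ddit4l changed direction under at least 1 alternative. Mtor stood at 0.00916 with DESeq2's size factors and 0.00568 in DESeq2, and Rptor at -0.32 on library totals, -0.00323 without the filter, -0.14 in limma-voom, -0.0092 in the newer form and -0.28 with the length offset. Tsc1 was at 0.10 in limma-voom. Rheb was at -0.39 on library totals, -7.85e-05 without the filter and -0.35 in limma-voom. Akt1 was at -0.19 on totals and -0.11 in limma-voom, and Ddit4l at -0.24 and -0.97. With libraries left out the ranges were -0.41 to 0.54 for Mtor, -0.36 to 0.27 for Rptor, -1.002 to 0.30 for Tsc1, -0.36 to 0.47 for Rheb, -0.23 to 0.65 for Akt1, -0.44 to 0.73 for Ddit4, -0.32 to 1.44 for Tbc1d7 and -0.64 to 0.80 for Ddit4l, and -0.51 to 0.73 for the log2 ratio of Akt1 over Akt2. Scaling by library totals alone moved the median of all genes to -0.31. The cause of these changes was not tested. With the replicate number as a block, Mtor stood at 0.22, Rptor at -0.0535 and Rictor at 1.53 with an adjusted p of 0.550 (edgeR), and 0 genes passed. The deviations of same-numbered libraries correlated at -0.10, 0.10 and -0.04, and those of other pairs across the groups at -0.09 to 0.12. With 3 libraries per group, these values cannot show whether the numbers pair the libraries. The DESeq2 fits without single libraries, the fit without both in vivo replicate 3 and in vitro replicate 2 and the length offset were chosen after seeing the data. Ddit4 had the fewest counts of the members over all libraries together, with as few as 5 in a library.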
